A study of Mus musculus with 27 samples.

Results

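The genes described here encode the extracellular matrix of the heart and the proteins that cross-link, bind or remodel it, among them the matrix genes of the endocardial cushions. The 47 members were chosen by name, and fall by role into 11 basement membrane genes, 7 fibrillar collagens, 6 other collagens, 8 elastic fibre genes, 8 cushion and matricellular genes and 7 genes of matrix remodelling. A region was assigned to a gene when at least 1 bp of it lay in the gene body or within 5 kb of any of the gene's transcription start sites (TSS). All 47 members had a region, of 19893 among 22225 protein-coding genes, and together they held 815 distinct regions of the 358833 in the study. *Col4a1* and *Col4a2* shared 1 region, which was counted once among the 815 regions and for each gene in counts of members.

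To determine where histone H3 lysine 4 methylation falls after loss of *Kmt2d*, the study mapped mono-, di- and trimethylated lysine 4 (H3K4me1, H3K4me2 and H3K4me3) by ChIP-Seq (sequencing of immunoprecipitated chromatin) in whole C57BL/6 mouse hearts at E11.5, a stage of midgestation. Controls were *Tnnt2::Cre;Kmt2d fl/+;mTmG/+* and mutants *Tnnt2::Cre;Kmt2d fl/fl;mTmG/+*, so that both genotypes carried the Cre transgene, the mTmG reporter and at least 1 floxed *Kmt2d* allele, and no Cre-negative heart entered the comparison. Cre was driven by the promoter of *Tnnt2*, a troponin gene of heart muscle cells, whereas the pools also held endocardial, cushion, epicardial and blood cells. Each genotype gave 3 pools of 30 hearts, with an input and 3 immunoprecipitations per pool, or 24 heart libraries in 8 groups of 3. Another 3 libraries, KMT2D ChIP-Exo from cardiomyocytes grown from embryonic stem cells, were not used. The values analysed are the authors' lists of regions, which give a chromosome, a start and an end and no read count, fold change or *P* value. There is no value per pool, so the spread between pools is unknown, no difference was tested against it, and the read depth behind a region is not known here. In whole hearts, fewer cells of a type and less methylation per cell cannot be told apart.

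The matrix is a scaffold that cells secrete around themselves. Fibrillar collagens resist stretch, elastic fibres give recoil, and the basement membrane is a sheet of laminin, type IV collagen, nidogen and perlecan that underlies endothelium and surrounds muscle cells. The cushions, from which the valves and part of the septa arise, begin as a swelling of hyaluronan and versican between endocardium and myocardium, and are then entered by mesenchymal cells that leave the endocardium and lay down collagen, fibronectin and periostin. KMT2D is a methyltransferase for lysine 4 of histone H3. H3K4me3 is found mainly at promoters, H3K4me1 mainly at enhancers and H3K4me2 at either.

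Because the H3K4me2 calls at members lay over TSS, the 250 bases before the main TSS are shown for 3 members whose TSS lay in an H3K4me2-decreased region and for 2 members with a wide TSS region in neither list. The sequences were read from assembly NCBIM37 (mm9) on the strand of the gene, 5′ to 3′. Capitals mark matches on either strand to 5 motifs: TATAAA (the TATA box), CCAAT (the CCAAT box), GGGCGG (the GC box), CACGTG (an E-box) and CATTCC (the core bound by TEAD factors). The GC box and the other motifs can overlap. Matches are to the letters alone, at any place in the window, and a box name does not mean that the site acts as one.
Col18a1, chr10:76629294-76629543, minus strand, in a decreased region of 18600 bp: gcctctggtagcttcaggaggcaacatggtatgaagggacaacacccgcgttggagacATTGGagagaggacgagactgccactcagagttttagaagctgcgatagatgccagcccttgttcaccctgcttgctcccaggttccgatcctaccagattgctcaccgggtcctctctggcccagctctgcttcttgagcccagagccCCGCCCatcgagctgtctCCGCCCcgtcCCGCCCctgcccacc
Mmp14, chr14:55050191-55050440, plus strand, in a decreased region of 11940 bp: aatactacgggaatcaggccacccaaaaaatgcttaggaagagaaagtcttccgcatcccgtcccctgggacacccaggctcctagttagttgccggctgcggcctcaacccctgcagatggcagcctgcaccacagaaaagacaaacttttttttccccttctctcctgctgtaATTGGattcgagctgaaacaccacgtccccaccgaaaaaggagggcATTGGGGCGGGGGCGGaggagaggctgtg
Lama4, chr10:38685071-38685320, plus strand, in a decreased region of 6860 bp: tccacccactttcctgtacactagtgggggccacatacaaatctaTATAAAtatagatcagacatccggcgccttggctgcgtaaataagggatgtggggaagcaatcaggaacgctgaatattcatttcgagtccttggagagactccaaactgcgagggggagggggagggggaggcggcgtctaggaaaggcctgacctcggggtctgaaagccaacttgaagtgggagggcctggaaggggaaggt
Sparc, chr11:55233583-55233832, minus strand, in a region of 15880 bp in neither list: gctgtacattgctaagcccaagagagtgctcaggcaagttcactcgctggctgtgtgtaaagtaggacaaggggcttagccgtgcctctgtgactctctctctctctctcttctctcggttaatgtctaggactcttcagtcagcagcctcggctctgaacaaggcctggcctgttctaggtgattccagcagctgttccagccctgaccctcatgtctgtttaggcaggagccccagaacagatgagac
Loxl1, chr9:58161020-58161269, minus strand, in a region of 15000 bp in neither list: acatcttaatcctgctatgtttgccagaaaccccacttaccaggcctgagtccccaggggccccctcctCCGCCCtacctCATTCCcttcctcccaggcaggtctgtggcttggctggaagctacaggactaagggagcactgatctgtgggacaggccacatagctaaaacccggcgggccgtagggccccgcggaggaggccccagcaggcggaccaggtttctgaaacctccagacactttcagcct

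GC content of these windows was 60.8% at *Col18a1*, 55.6% at *Mmp14* and 54.0% at *Lama4*, and it was 54.0% at *Sparc* and 60.8% at *Loxl1*. The GC box stood in the windows of *Col18a1* and *Mmp14* and also in that of *Loxl1*, which had no decreased region. *Sparc* held none of the 5 motifs. Over the fuller window of 250 bases before to 50 after the main TSS, the GC box was present at 32 of 47 members (68.1%, against 44.8% of all coding promoters), the CCAAT box at 21 (44.7% against 37.7%), the TATA box at 8 (17.0% against 13.4%), the TEAD core at 6 (12.8% against 13.2%) and the E-box at 1 (2.13% against 7.86%). Of the 12 members with a TSS in an H3K4me2-decreased region, 10 held the GC box, 4 the CCAAT box, 1 the TATA box and none the other motifs. The GC box was present at 62.9% of the other 35 members. Among all coding genes with a TSS in such a region, 66.4% held the GC box, 37.8% the CCAAT box and 6.98% the TATA box. The E-box stood at 10.4% of them and the TEAD core at 11.4%. Among coding genes with a TSS in a region outside that list, 58.3% held the GC box. All coding genes include those with no region over a TSS, whereas 45 of 47 members had one. The 44.8% is therefore not a background of like promoters. Median promoter GC was 61.3% in members (37.0% to 75.3%) and 55.7% in all coding genes. A promoter was called CpG-rich at a GC content of at least 50% and an observed over expected CpG ratio of at least 0.6, which held for 17 members (36.2%) and for 43.5% of all coding genes. Among coding genes whose TSS lay in an H3K4me2-decreased region, 75.3% were CpG-rich, and among those with a TSS in another region 54.7% were. Among the members with a TSS in an H3K4me2-decreased region, 5 of 12 (41.7%) were CpG-rich. The 7 that were not CpG-rich were *Col18a1*, *Col5a2*, *Has2*, *Lama1*, *Lama4*, *Mmp14* and *Vcan*. Where a TSS lay in a region and the promoter was not CpG-rich, 7 of 28 members (25.0%) and 18.4% of other coding genes were H3K4me2-decreased there, and where it was CpG-rich, 5 of 17 members (29.4%) and 36.3% of other genes were.

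Of the merged regions, 1.87% were in the H3K4me2-decreased list and 0.761% in the H3K4me1-decreased list. Of all coding genes, 70.5% had a covered TSS, so that a covered TSS says little about the cells present. A region covered the TSS of 10 of 10 heart muscle markers, 7 of 7 endothelial and endocardial markers, 7 of 7 cushion mesenchyme markers, 5 of 5 epicardial markers, 3 of 4 blood markers (not *Ptprc*) and 3 of 6 markers of organs outside the heart (not *Alb*, *Krt5* or *Sftpc*). An H3K4me2-decreased region lay at 6 of the heart muscle markers (*Actc1*, *Gata4*, *Hand2*, *Nkx2-5*, *Tbx5* and *Tnni1*), at 1 of the cushion mesenchyme markers (*Twist1*), at 2 blood markers (*Alas2* and *Klf1*) and at none of the endothelial or epicardial markers. An H3K4me1-decreased region lay at 3 heart muscle markers (*Gata4*, *Tbx5* and *Tnni1*) and at *Pecam1*. The other heart muscle markers, *Tnnt2*, *Myh6*, *Myh7* and *Myl7*, were in neither list. Their TSS regions were 13920 bp (*Myh7*) to 16680 bp (*Myl7*) wide. Heart muscle markers had wide regions, and coding genes of like summed width would give 4.82 of 10 for H3K4me2 and 2.26 for H3K4me1. For H3K4me2 they would give 3.12 of the endothelial, 2.75 of the cushion mesenchyme, 1.84 of the epicardial and 1.30 of the blood markers. The part of cell type in the members' calls was not tested.

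Matrix genes had more H3K4-methylated regions, and a larger summed width, than the typical coding gene. The median member had 16 regions with a summed width of 17220 bp, whereas the median coding gene with a region had 5 regions and 6540 bp. Members were also longer, at a median of 64411 bp against 18378 bp. The largest summed widths were those of *Col4a2* (97720 bp), *Col4a1* (74300 bp), *Col18a1* (70080 bp), *Col5a1* (67400 bp) and *Lamc1* (67120 bp), of which all but *Col5a1*, a fibrillar collagen, belong to the basement membrane. The smallest were those of *Lum*, a small proteoglycan that binds collagen fibrils (660 bp), *Timp1*, an inhibitor of matrix metalloproteinases (980 bp), *Mgp*, an inhibitor of calcification (2160 bp), *Lox*, which cross-links collagen and elastin (3980 bp), and *Col6a2*, a chain of the beaded filaments of type VI collagen (4480 bp). The number of regions ran from 1 at *Mgp* to 60 at *Fbn1*. Regions covered from 3.83% of the gene body at *Col11a1* to 66.9% at *Adamts1*, with a median of 23.5%. Of the 47 members, 16 were in the top decile of summed width of the other coding genes and 38 in the top 4 deciles.

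**Figure D1:**
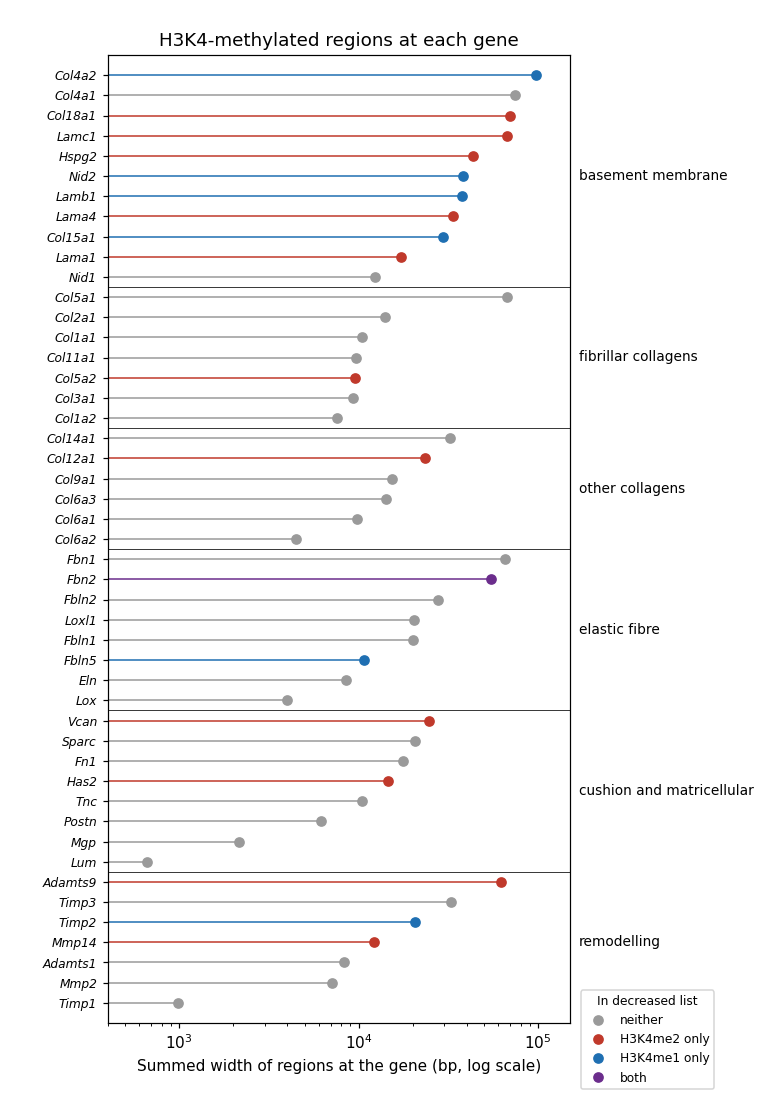
Summed width of all regions assigned to each of the 47 genes (bp, log scale), grouped by role, with 1 point per gene coloured by the list that holds a region of it. Basement membrane genes reach the largest widths, up to 97720 bp at Col4a2, and 9 of the 11 have a decreased region. Lum has the smallest width, at 660 bp.

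Of the 815 member regions, 56 (6.87%) held a TSS of their member, with a median width of 4560 bp, 197 (24.2%) overlapped an exon without a TSS (660 bp), 527 (64.7%) were intronic (260 bp) and 35 (4.29%) lay outside the gene within 5 kb of a TSS (480 bp). The intronic regions were many and narrow, and the TSS regions few and wide. The widest was nevertheless not at a TSS. It was a run of 38420 bp in the body of *Col4a1* (chr8:11248066-11286485), which overlapped exons and was in neither decreased list. Of the 29 member regions of at least 8000 bp, 13 held a TSS, and the TSS region was the widest of its gene in 27 members.

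A region covered a TSS of 45 of 47 members, against 70.5% of all coding genes. The exceptions were *Lum*, whose nearest region was 600 bp wide and began 751 bp into the gene, and *Tnc*, which encodes the matricellular protein tenascin C, with a region of 640 bp at a distance of 214 bp. *Tnc* had 19 regions in all, the widest of them an exonic region of 2480 bp, whereas *Lum* had 2. The TSS region had a median width of 5040 bp in members and 3710 bp in coding genes.

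An H3K4me2-decreased region lay at 12 members (25.5%), against 28.7% of coding genes with a region, and an H3K4me1-decreased region at 7 (14.9%), against 7.10%. Either list held a region of 18 members, with a background of 33.0%, and *Fbn2* was the only member with a region in each list. The remaining 29 had neither. All 12 members with decreased H3K4me2 had it over a TSS, which was 12 of the 45 with a covered TSS, where the background was 29.2%. No member TSS lay in an H3K4me1-decreased region (background 1.29%). Of 13 H3K4me2-decreased member regions, 12 (92.3%) held a TSS of a coding gene, against 76.5% of the 5216 at other coding genes, and of 7 H3K4me1-decreased member regions 1 (14.3%) did, against 208 of 1811. That 1 was an intronic region of *Timp2* which held the TSS of another gene, *BC100451*. The member regions were also wider than those at other genes, with medians of 7960 bp against 3760 bp for H3K4me2 and 3480 bp against 2160 bp for H3K4me1.

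**Figure D2:**
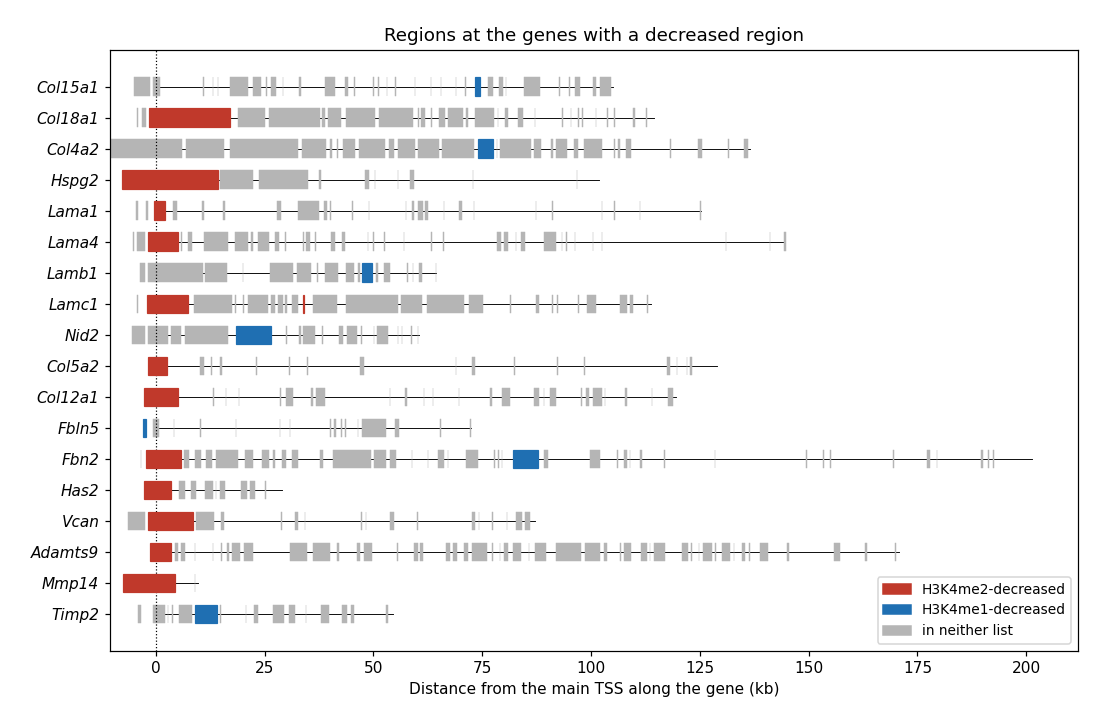
Regions of the 18 genes with a decreased region, placed by distance from the main TSS in the direction of transcription (kb); the thin line is the gene body, and narrow regions are drawn with a minimum line width. Red H3K4me2-decreased regions sit over the dotted TSS line, with the exception of the 100-bp region 33891 bp into Lamc1, and blue H3K4me1-decreased regions lie away from it.

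Of the 11 basement membrane genes, which make up the largest role and have the widest regions, 5 had an H3K4me2-decreased region and another 4 an H3K4me1-decreased region, and none had both. Coding genes of like summed width would give 5.65 and 3.20. At *Hspg2*, which encodes the proteoglycan perlecan, the region spanned 22060 bp (chr4:137016806-137038865) and held 3 TSS, exons and annotated UTR. It was the widest decreased region of any member. At *Col18a1*, whose chain carries the endostatin fragment, the region spanned 18600 bp (chr10:76612266-76630865) and reached 17027 bp into the gene. *Lamc1*, the shared gamma chain of most laminins, had an H3K4me2-decreased region of 9540 bp over the TSS (chr1:155172426-155181965) and an intronic one of 100 bp, the only H3K4me2-decreased member region without a TSS. *Lama4*, an alpha chain of vascular and muscle laminins, had one of 6860 bp over 4 TSS (chr10:38683586-38690445), and *Lama1*, the alpha chain of the early embryo, one of 2660 bp (chr17:68046126-68048785), the narrowest TSS region in the list among members.

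The partner beta chain *Lamb1* was in the H3K4me2 list nowhere, although its TSS region was 12460 bp wide, and had an intronic H3K4me1-decreased region of 2160 bp (chr12:31997626-31999785), 47468 bp from the main TSS. *Nid2*, a nidogen that links laminin to type IV collagen, had an intronic H3K4me1-decreased region of 8060 bp (chr14:20588806-20596865), at 18327 bp from the TSS. *Nid1*, the other nidogen, had 19 regions and none in either list. The type IV collagen chains *Col4a1* and *Col4a2* are transcribed in opposite directions from a shared promoter, and 1 region of 16580 bp (chr8:11302266-11318845) covered the TSS of both. It was in neither list, while *Col4a2* had an intronic H3K4me1-decreased region of 3480 bp (chr8:11386786-11390265) at 73981 bp. *Col15a1*, a collagen of the outer face of the basement membrane, had an exonic H3K4me1-decreased region of 1200 bp (chr4:47294386-47295585), which lay 73353 bp from the main TSS and 5344 bp from the nearest annotated TSS.

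Of the 7 fibrillar collagens, only *Col5a2*, a minor chain that sets fibril diameter, had a decreased region, an H3K4me2-decreased one of 4340 bp over 2 TSS (chr1:45557486-45561825). Its partner *Col5a1* had 37 regions and 67400 bp in all, with none decreased. *Col1a1*, *Col1a2* and *Col3a1*, the main collagens of connective tissue, and the cartilage and cushion collagens *Col2a1* and *Col11a1*, were in neither list. Their summed widths lay between 7560 bp at *Col1a2* and 14020 bp at *Col2a1*, and their TSS regions between 4580 bp at *Col11a1* and 8400 bp at *Col3a1*. The decreased TSS region of *Col5a2* was narrower than the TSS region of every other fibrillar collagen.

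Among the 6 other collagens, *Col12a1*, which decorates fibrils, had an H3K4me2-decreased region of 7960 bp over 4 TSS (chr9:79561126-79569085), which was the widest TSS region of that group. The type VI chains *Col6a1*, *Col6a2* and *Col6a3*, the fibril-associated *Col14a1* with 44 regions, and *Col9a1* had no decreased region. TSS regions of these 5 ranged from 1220 bp at *Col6a3* to 3840 bp at *Col9a1*.

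In the elastic fibre group, *Fbn2*, the fibrillin of embryonic microfibrils, had an H3K4me2-decreased region of 8080 bp over its TSS (chr18:58363806-58371885) and an H3K4me1-decreased region of 5620 bp inside the gene (chr18:58281866-58287485), which overlapped an exon at 82095 bp from the TSS. *Fbn1*, another fibrillin, had more regions than any other member and neither mark decreased, with a TSS region of 4600 bp. *Fbln5*, which helps elastin to assemble, had an H3K4me1-decreased region of 720 bp that lay upstream of the gene (chr12:103059486-103060205), 2221 bp from its TSS. This was the only decreased member region outside a gene body. *Fbln1*, *Fbln2*, the elastin gene *Eln* and the cross-linking enzymes *Lox* and *Loxl1* were in neither list, although the TSS regions of *Fbln2* (15480 bp) and *Loxl1* (15000 bp) were wider than that of *Fbn2*.

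Of the 8 cushion and matricellular genes, *Has2* and *Vcan* had an H3K4me2-decreased region. At *Has2*, which makes hyaluronan, it spanned 6400 bp over the TSS (chr15:56522506-56528905). At *Vcan*, whose product versican binds hyaluronan, it spanned 10380 bp over 7 TSS (chr13:89873526-89883905). The other 6, *Fn1* (fibronectin), *Postn* (periostin), *Sparc* (a collagen-binding glycoprotein), *Lum*, *Mgp* and *Tnc*, had none. The TSS regions of *Sparc* (15880 bp) and *Fn1* (12400 bp) were wider than those of *Has2* and *Vcan*. No gene of this group had an H3K4me1-decreased region. *Mgp* lay just outside the window, since a region of 100 bp at 9620 bp from its TSS (chr6:136833946-136834045) was in both lists.

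Of the 7 remodelling genes, *Adamts9*, a protease that cleaves versican, had an H3K4me2-decreased region of 4920 bp over its TSS (chr6:92889926-92894845), and *Mmp14*, a membrane-bound metalloproteinase, one of 11940 bp (chr14:55042966-55054905). The *Mmp14* region also held the TSS of the neighbouring gene *Mrpl52*, and to which of the genes the call belongs cannot be told apart. *Timp2*, an inhibitor of metalloproteinases, had an intronic H3K4me1-decreased region of 5020 bp (chr11:118202886-118207905) at 8915 bp from the main TSS. *Adamts1*, *Mmp2*, *Timp1* and *Timp3* were in neither list. The TSS region of *Adamts1*, which like *Adamts9* acts on versican, was 7600 bp wide.

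The TSS regions of the 12 members in the H3K4me2 list were 2660 to 22060 bp wide, with a median of 8020 bp. Those of the 33 members outside it were 820 to 16580 bp wide, with a median of 4580 bp, so that the ranges overlapped over most of their length. Other coding genes had medians of 4760 bp and 3320 bp. At TSS regions under 2000 bp, 0 of 8 members and 7.57% of other genes were in the list. The shares were 1 of 7 (14.3%) and 27.2% from 2000 to under 4000 bp, 5 of 16 (31.2%) and 36.5% from 4000 to under 8000 bp, and 6 of 14 (42.9%) and 46.5% at 8000 bp or more. The 8 members with a TSS region of at least 8000 bp outside the list were *Col3a1*, *Col4a1*, *Col4a2*, *Fbln2*, *Fn1*, *Lamb1*, *Loxl1* and *Sparc*. The region of 16580 bp that *Col4a1* and *Col4a2* share enters these counts, shares and medians for each of the genes. Counted once, it would bring the member share at 8000 bp or more nearer to the 46.5%.

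**Figure D3:**
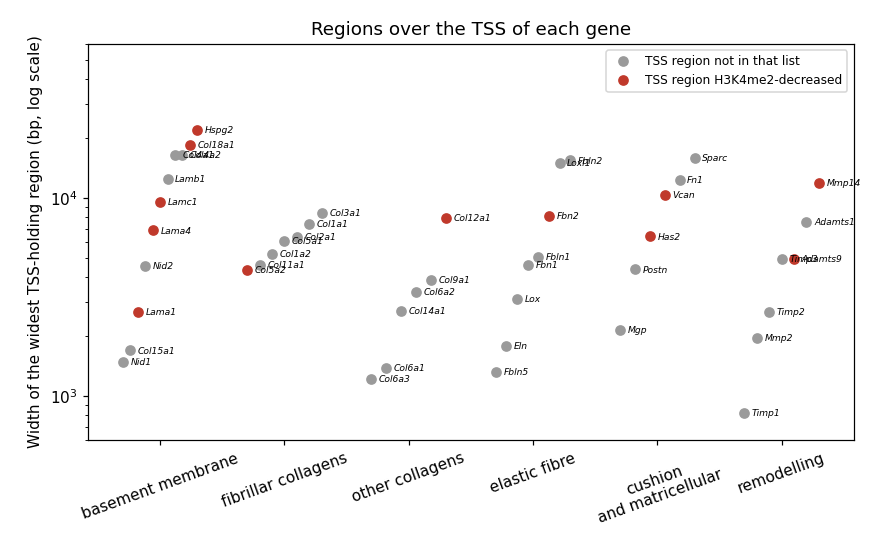
Width of the widest region over a TSS of each of 45 genes (bp, log scale), by role of the gene; within a role, points are spread in order of width. Red points, the 12 H3K4me2-decreased TSS regions, run from 2660 bp at Lama1 to 22060 bp at Hspg2 and, up to the widest grey point at 16580 bp, lie among grey points of like width; Col18a1 and Hspg2 are wider than any grey point. Lum and Tnc, with no region over a TSS, are not drawn.

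Since members had wide regions, their calls were set beside those of other coding genes of like summed region width. In other coding genes the share with an H3K4me2-decreased region rose from 0.968% in the lowest decile of summed width to 53.5% in the highest, and for H3K4me1 it rose from 0.815% to 33.3%. Summing these shares over the deciles of the 47 members gave 19.4 members for H3K4me2, against 12 observed. The ratio was 0.619 (0.370 to 0.958, from the 95% Wilson interval of 12 in 47). The 19.4 counts a decreased region anywhere at the gene. Counting only calls over a TSS, which all 12 members had, genes of like summed width gave 14.9. For H3K4me1 the sum gave 7.49 members against 7 observed, a ratio of 0.934 (0.464 to 1.74). These intervals cover counting error over genes and not the variation between pools. They treat genes as independent, although *Col4a1* and *Col4a2* share a TSS region, and hold the like-width number fixed. An interval that leaves out 1 is therefore not a test. No test was made, since the members were named with earlier results of these data known. In the highest decile, 6 of 16 members had decreased H3K4me2, in the ninth 3 of 9 (44.1% of other genes), in the eighth 2 of 5 (39.8%) and in the seventh 1 of 8 (36.7%). The 9 members in lower deciles had none.

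**Figure D4:**
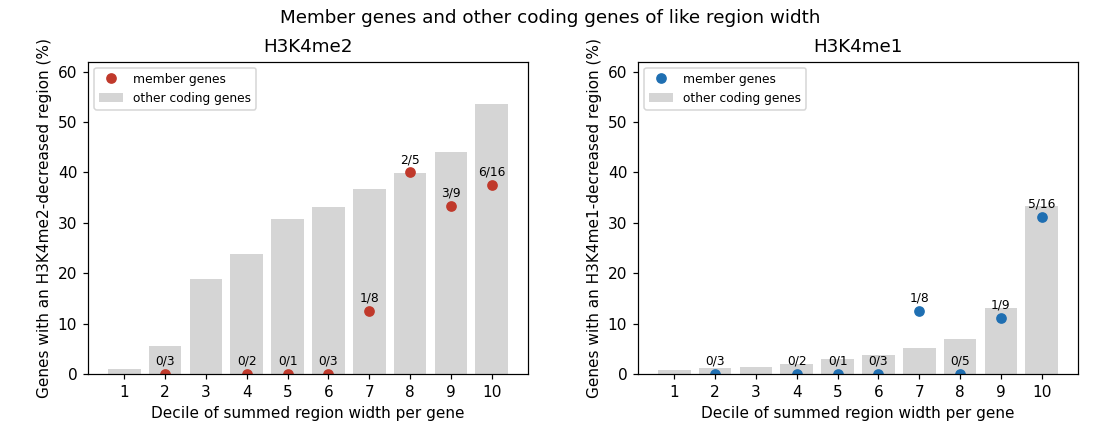
Percent of other coding genes (grey bars) with an H3K4me2-decreased (left) or H3K4me1-decreased (right) region, by decile of summed region width per gene, with member genes as points and their counts printed above. For H3K4me2 the points lie below the bars in 7 of the 8 deciles that hold members, with 2 of 5 members beside 39.8% in the eighth. For H3K4me1 the top decile holds 5 of 16 members beside 33.3%.

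By role, the observed numbers for H3K4me2 and those from genes of like summed width were 5 and 5.65 in basement membrane genes, 2 and 2.50 in cushion and matricellular genes, 2 and 2.63 in remodelling genes, 1 and 3.46 in elastic fibre genes, 1 and 2.73 in fibrillar collagens and 1 and 2.42 in other collagens. By this measure the collagens outside the basement membrane and the elastic fibre genes lay furthest below. For H3K4me1 they were 4 and 3.20 in basement membrane genes, 2 and 1.39 in elastic fibre genes and 1 and 0.954 in remodelling genes. The other 3 groups had 0, beside like-width numbers of 0.568 to 0.737, which such small groups cannot separate from 0. Setting each TSS region beside TSS regions of like width, in place of summed widths, gave 15.2 of the 45 members against 12 observed, a ratio of 0.790. By role it gave 4.23 basement membrane genes against 5, 2.36 cushion and matricellular genes against 2, 2.07 remodelling genes against 2, 2.55 elastic fibre genes against 1, 2.59 fibrillar collagens against 1 and 1.39 other collagens against 1. The 5 basement membrane genes thus stood between 4.23 and 5.65, close to the number from like width by either measure. Elastic fibre genes and fibrillar collagens, with 1 gene called in each, lay furthest below by either measure. With so few genes called per role, these numbers are too small to separate a role from its like-width number.

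**Figure D5:**
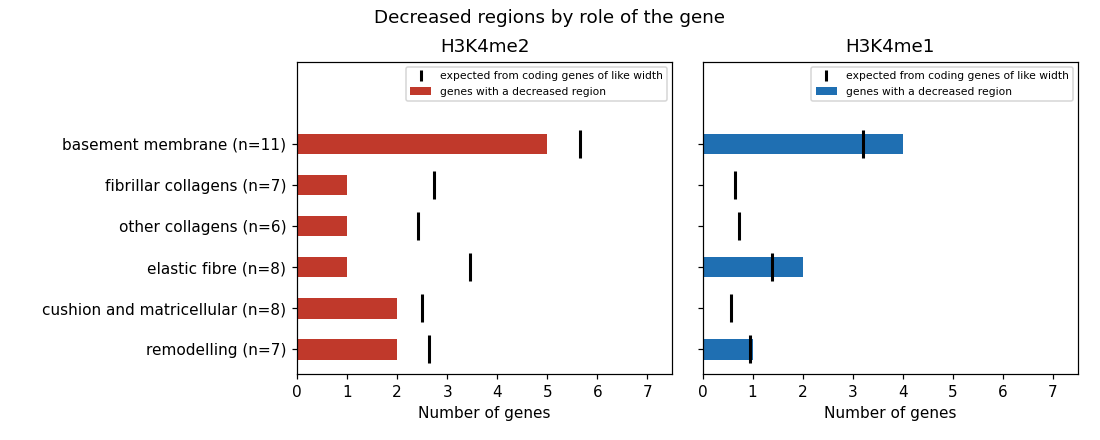
Number of genes with an H3K4me2-decreased (left) or H3K4me1-decreased (right) region in each role (bars), with the number that other coding genes of like summed width give (black ticks). Basement membrane genes have 5 beside 5.65 for H3K4me2 and 4 beside 3.20 for H3K4me1, and elastic fibre genes have 1 beside 3.46 and 2 beside 1.39.

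By region, 13 of 815 member regions (1.60%, Wilson interval 0.935% to 2.71%) were H3K4me2-decreased, against 2.69% of the 193746 regions at other coding genes. For H3K4me1 the numbers were 7 (0.859%, 0.417% to 1.76%) and 0.935%. By covered length, 9.61% of member base pairs were in the H3K4me2 list and 2.22% in the H3K4me1 list, against 12.2% and 2.94% at other coding genes. Member regions under 500 bp, of which there were 424 (52.0%), held 1 H3K4me2-decreased region, that of *Lamc1*, and no H3K4me1-decreased region, where the shares at other genes were 0.615% and 0.371%. From 500 to under 2000 bp, none of 242 member regions was H3K4me2-decreased, against 0.818% at other genes. From 2000 to under 4000 bp the share was 1.49% of 67 against 8.98%, from 4000 to under 8000 bp 9.43% of 53 against 18.6%, and at 8000 bp or more 20.7% of 29 against 28.5%. For H3K4me1 the same 3 classes gave 2.99% against 2.65%, 3.77% against 3.67% and 3.45% against 5.79%. These classes match width and not whether a region holds a TSS. At other coding genes 76.5% of H3K4me2-decreased regions held one, and of the 29 member regions of 8000 bp or more 13 did. The share of other genes' regions in each class that hold a TSS is not given here. Regions of 1 gene are not independent of each other.

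Genes that act on the matrix, or bind cells to it, were counted in 3 further lists. Of 18 genes that process collagen, 7 (38.9%) had an H3K4me2-decreased region, namely the propeptidases and their enhancer *Adamts2*, *Adamts3* and *Pcolce*, and the enzymes and partners of collagen hydroxylation *Crtap*, *P4hb*, *Plod1* and *Plod3*. An H3K4me1-decreased region lay at 4 (22.2%), *Adamts3*, *Lepre1*, *Loxl2* and *P4ha2*. Of 25 matrix receptors, 9 (36.0%) had decreased H3K4me2, among them the integrins *Itga1*, *Itga6*, *Itgav*, *Itgb1* and *Itgb5*, the collagen receptors *Ddr1* and *Ddr2*, the dystroglycan gene *Dag1* and the glypican *Gpc1*. *Itga3* and *Itgb5* (8.0%) had decreased H3K4me1. Of 40 further matrix genes, 6 (15.0%) had decreased H3K4me2, among them *Col8a1* and *Hapln1*, and 3 (7.5%) decreased H3K4me1, at *Col13a1*, *Lama5* and *Ltbp4*. *Hapln1* links versican to hyaluronan. Coding genes of like summed width would give 7.36 collagen processing genes, 11.4 receptors and 14.5 further matrix genes with decreased H3K4me2, so that the observed 6 further matrix genes lay below and the collagen processing genes near that number. For H3K4me1 they would give 2.26, 4.55 and 3.81. Median summed widths were 15030 bp for collagen processing, 20280 bp for receptors and 10010 bp for further matrix genes.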

How the data were processed

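ChIP-Seq for H3K4me1, H3K4me2 and H3K4me3 was measured in 3 pools each of control and mutant E11.5 hearts. The submitters' processing notes name CASAVA 1.8.2, FastQC, Bowtie, Bowtie2, SAMtools and build mm9. The peak caller, its settings and the test for decreased regions were not given in the sources used here. The authors merged peaks over replicates and marks and deposited that list and the regions with lower H3K4me1 or H3K4me2 in mutants, cut at their own false discovery rate. The deposited lists hold positions only, with no counts, so that depth and its precision are unknown and the calls cannot be graded. Changes in H3K4me3 and the ChIP-Exo libraries were not analysed here.

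Genes, TSS, exons and UTR came from GENCODE vM1 on NCBIM37 (mm9), and regions on all 21 chromosomes ended within that assembly. Coordinates are 1-based. Overlap meant at least 1 bp, and a decreased region was counted when it had exactly the position of a merged region, as all had. The main TSS of a gene was that of its lowest-numbered coding transcript. Width deciles were set on coding genes that are not members. The members, roles and further lists were chosen with earlier results of these data known. Named with coordinates were all members with a decreased region, and named with values the 5 widest and 5 narrowest by summed width and those without a covered TSS. Other names were chosen after their values were seen. Sequences were those of up to 5 promoters in the widest H3K4me2-decreased TSS regions and up to 3 of members in neither list, leaving out windows with annotated UTR, windows on chromosome 18 and the repetitive window of *Fbln2*. Some sequences and 1 gene name that these rules gave are not reported here. No test was made. Counting was tested on simulated lists. Alternatives covered the TSS window, the TSS set, narrow regions, the width classes and leaving out 1 role, which with TSS regions of like width was chosen after seeing the data. Python 3.11.15, pandas 2.3.3, numpy 2.4.6, scipy 1.17.1 and matplotlib 3.10.9 were used.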

Additional observations from a re-analysis of the deposited data

How the results depend on the processing

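Of 76 values recomputed for 10 results under other settings, 61 stayed within 1.5 times the value given or within its interval, and 15 moved. The intervals are wide. That of the H3K4me1 ratio was 0.464 to 1.74, so a ratio on either side of 1 counted as unchanged. Median regions per member fell to 7 when regions under 500 bp were left out and to 4 when those under 1000 bp were left out or with regions within 5 kb of a TSS only, where the median summed width was 8240 bp. Within 5 kb of a TSS only, 1 member (*Fbln5*) kept an H3K4me1-decreased region, a ratio of 0.452 to genes of like width, and 5.41% of member regions were H3K4me2-decreased. Shares of regions rose to 3.07% (H3K4me2) and 1.79% (H3K4me1) at 500 bp or more and to 4.71% and 2.35% at 1000 bp or more. They were 9.61% and 2.22% by base pairs, against 12.2% and 2.94% at other coding genes. For the width limits and the 5.41%, the share at other coding genes is not given here. That share also rises with width, for H3K4me2 from 0.615% under 500 bp to 28.5% at 8000 bp or more, so these rises are not particular to members. Without the basement membrane genes, a setting chosen after seeing the data, 7 members had decreased H3K4me2 and 3 decreased H3K4me1. The numbers from coding genes of like width were 13.7 and 4.29. A window of 10 kb gave 13 members for H3K4me2 and 8 for H3K4me1, since it took in the region beyond *Mgp*, beside like-width numbers of 20.1 and 7.69.

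For H3K4me2 the ratio to coding genes of like width, or of like gene length, ran from 0.613 to 0.750 over the planned settings. It was 0.509 without the basement membrane genes and 0.790 by TSS regions of like width, which were both chosen after seeing the data. For H3K4me1 it ran from 0.452 to 1.27, on either side of 1. The cause of these shifts beyond the change in the regions counted was not tested. No paired analysis was possible because the lists hold no value per library. A region outside a decreased list may still have changed, since neither depth nor effect size is known, and the lists give no measure of how close a region was to being called.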
